A study of Capra hircus with 198 samples.

Results

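The imprinted genes described here are IGF2, PEG3, PEG10, DLK1, NNAT, MEST, PLAGL1, NDN, SNRPN and CDKN1C. They were chosen by name, and all 10 of the 10 listed genes had a row in the count table of 39734 features. The table covers 33 tissues of 6 adult female goats of the Murciano-Granadina breed, a dairy breed. The labels place goats 2, 3 and 6 in lactation and call goats 54, 64 and 73 dry, and no allele, agent or other treatment is named for either group. Each goat gave 1 library per tissue, so that there were 198 libraries from total RNA. Of the tissues, 8 were brain regions and 22 were peripheral, and the adenohypophysis, neurohypophysis and pineal gland were kept apart from both. With 3 goats in each state, lactation cannot be told apart from any other difference between these goats.

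Imprinted genes are genes of which mainly 1 of the parental copies is read, the maternal or the paternal one, because marks set in the germ line silence the other. In the mammals in which they were studied most, CDKN1C is read from the maternal copy and the other genes of the set from the paternal copy. Many of them regulate growth before birth and fall in level in most tissues afterwards, while some stay active in the brain and in endocrine organs. The libraries measured the sum of both copies, and which copy was read was not measured. In a bulk library, fewer cells of a type and less RNA per cell cannot be told apart.

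Levels are given as counts-per-million of the library total (CPM), a measure that was computed here and is not corrected for gene length, so levels are compared between tissues and not between genes. The median library held 4.63 M counts, the smallest 1.31 M and the largest 8.97 M. A count of 3, taken as the floor below which a level was not read, was worth between 0.335 and 2.29 CPM. The floor covers counting error only. Features of the deposited lncRNA annotation took 85.0% of all counts, and the set itself took 0.00853%. Several libraries did not carry the markers of their label. The neurohypophysis libraries held markers of pituitary endocrine cells (GH1, POMC, CGA, LHB and TSHB) at a summed mean of 1122 CPM, against 1133 CPM in the adenohypophysis, and markers of pituicytes and vasopressin neurons at 0.862 CPM. The pineal libraries of the lactating goats held at most 0.835 CPM of pinealocyte markers, against 65.5 to 145.6 CPM in the dry goats. The hypothalamus and frontal neocortex of goat 2 held 8.90 and 8.23 CPM of neuronal markers, against at least 47.9 and 121.8 CPM in the other 5 goats.

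Some genes of the set were read in every tissue and others in few. NNAT, MEST, PLAGL1 and SNRPN had a mean of at least 1 CPM in all 33 tissues. CDKN1C reached that level in 29 tissues, PEG3 in 27, IGF2 in 21, PEG10 in 20, NDN in 11 and DLK1 in 3. The tissue specificity score tau, which is 0 for an even level and 1 for a single tissue, was computed here on log2(CPM + 1) and ran from 0.30 for PLAGL1 to 0.875 for DLK1. Its median over the set was 0.614, against 0.496 over features outside the lncRNA annotation. The map of tissue means shows the leading tissues. They were the thyroid for IGF2, the adrenal gland for PEG10 and NDN, the pituitary for NNAT, MEST and PLAGL1, the hypothalamus for PEG3, the rostral colliculus for SNRPN, the kidney medulla for DLK1 and subcutaneous fat for CDKN1C.

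**Figure D1:**
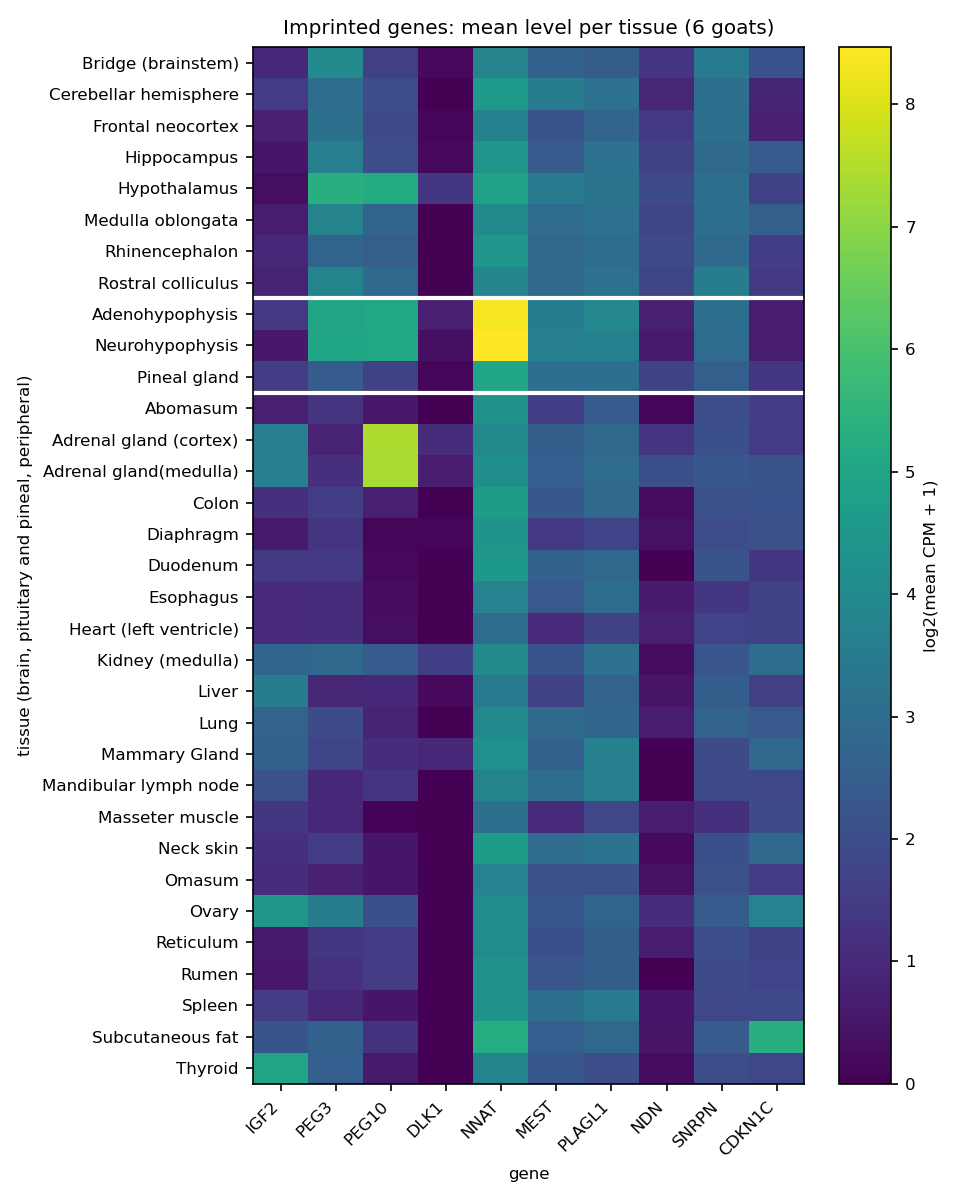
Mean level of each gene (columns) in each of 33 tissues (rows) over 6 goats, as log2(mean CPM + 1), with white lines between brain regions, pituitary and pineal, and peripheral tissues. PEG10 stands out in both parts of the adrenal gland and NNAT in both lobes of the pituitary, while DLK1 is near 0 in most rows.

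PEG10 derives from a retrotransposon and keeps its gag-like and pol-like reading frames; it is needed for the placenta. Its levels in the adrenal cortex ran from 117.9 to 228.6 CPM with a median of 160.7 CPM, and in the adrenal medulla from 79.3 to 220.2 CPM with a median of 169.7 CPM. All 12 adrenal libraries lay above all 186 other libraries. The means, 170.1 ± 45.6 CPM (SD, n = 6) in the cortex and 168.5 ± 51.8 CPM (SD, n = 6) in the medulla, did not differ beyond their spread. The hypothalamus followed at 36.3 ± 20.5 CPM, the adenohypophysis at 31.9 ± 8.08 CPM and the neurohypophysis at 31.7 ± 11.8 CPM (SD, n = 6 each), and their ranges overlapped. The next tissue in the order, the rostral colliculus, was at 6.52 ± 1.65 CPM (SD, n = 6). Skeletal muscle was at the other end, with 4 of 6 libraries at 0 in both the diaphragm and the masseter muscle.

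NNAT encodes a small membrane protein of the endoplasmic reticulum that resembles phospholamban and acts on the calcium pump SERCA. Its neurohypophysis levels ran from 236.5 to 526.3 CPM with a median of 293.2 CPM, and its adenohypophysis levels from 152.0 to 479.2 CPM with a median of 338.3 CPM. The 12 pituitary libraries lay above all others. Subcutaneous fat came next at 36.5 ± 23.0 CPM, followed by the pineal gland at 31.5 ± 19.4 CPM and the hypothalamus at 28.3 ± 4.66 CPM (SD, n = 6 each). The pineal mean joins 48.6 ± 3.38 CPM in the dry goats with 14.3 ± 7.12 CPM (SD, n = 3 each) in the lactating goats, whose pineal libraries lacked pinealocyte markers, and each dry pineal library lay above the mean of subcutaneous fat. NNAT was above 0 in every library, and its lowest mean was 6.71 ± 5.14 CPM (SD, n = 6) in the left ventricle of the heart.

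**Figure D2:**
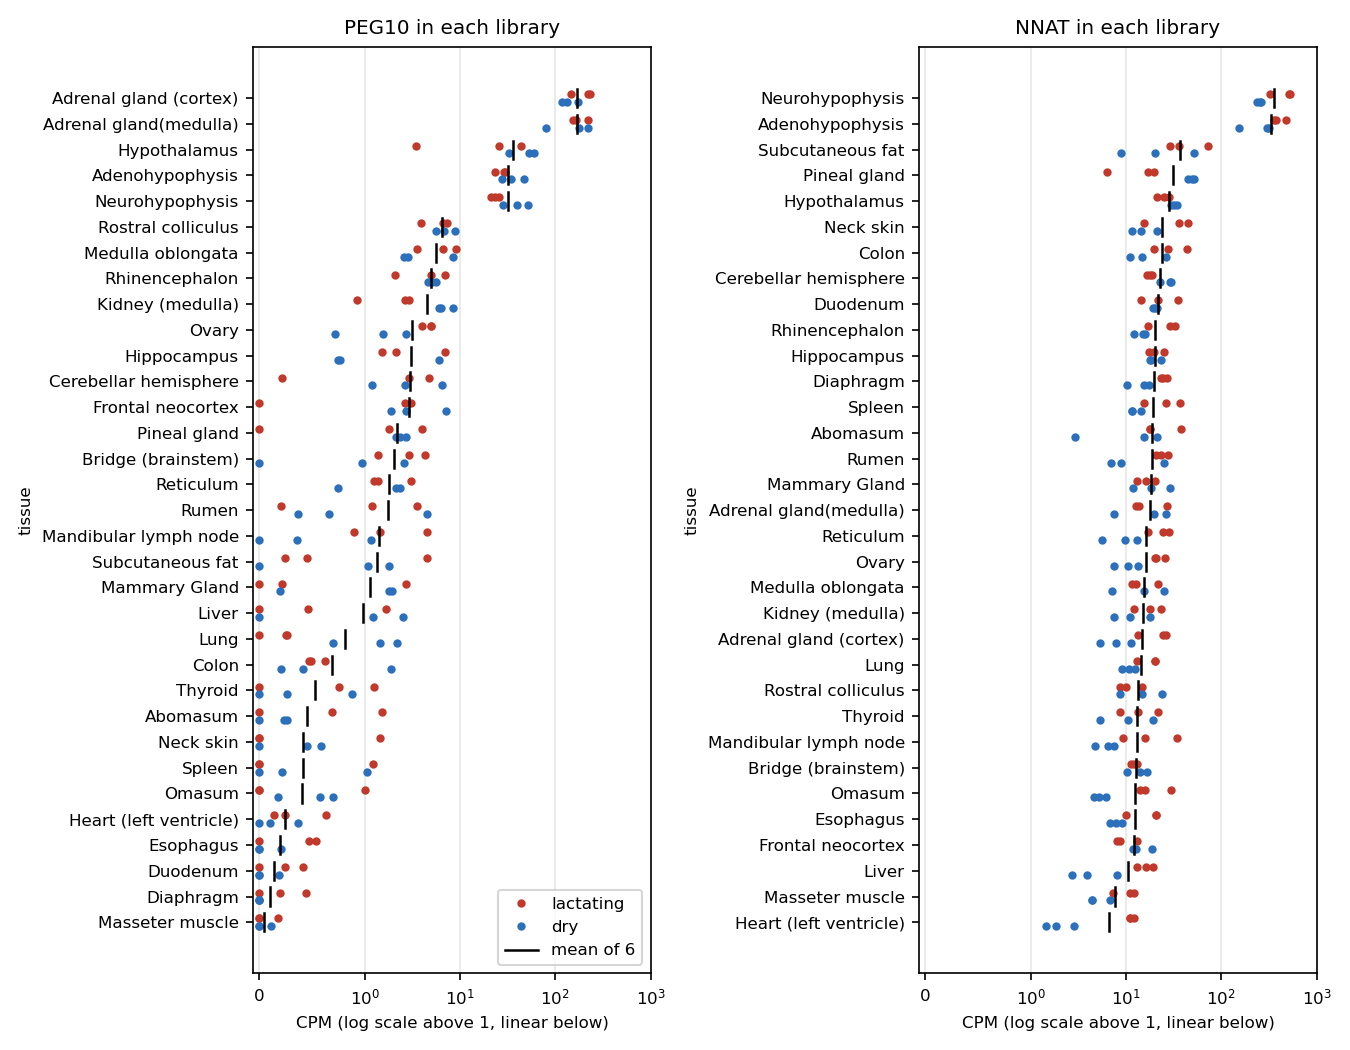
PEG10 (left) and NNAT (right) in every library, with CPM on an axis that is logarithmic above 1 and linear below, tissues ordered by their mean, red points for lactating goats, blue points for dry goats and a bar at the mean of 6. The 2 adrenal rows of PEG10 and the 2 pituitary rows of NNAT hold 12 libraries each, all of them above every library of the other rows.

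IGF2, a growth factor that signals through the IGF1 and insulin receptors, led in the thyroid, where its levels ran from 8.62 to 46.7 CPM with a median of 31.2 CPM. The ovary followed at 21.4 ± 19.9 CPM, then the adrenal medulla at 11.9 ± 8.32 CPM, the adrenal cortex at 11.6 ± 3.50 CPM and the liver at 11.02 ± 6.05 CPM (SD, n = 6 each). The ranges of each of these neighbours in the order overlapped. The order of the first of them depended on state: in lactating goats the ovary was at 39.4 ± 4.12 CPM and the thyroid at 30.6 ± 4.91 CPM, and in dry goats the ovary was at 3.42 ± 2.19 CPM and the thyroid at 28.4 ± 19.1 CPM (SD, n = 3 each). The lowest mean was 0.246 CPM in the hypothalamus, where 4 of 6 libraries had no count. CDKN1C, the cyclin-dependent kinase inhibitor p57, led in subcutaneous fat at 38.8 ± 38.7 CPM (SD, n = 6). A single library, that of goat 3, was at 114.9 CPM there, and the other 5 lay between 8.16 and 37.8 CPM. That library also held the highest sums of adipocyte markers (1809 CPM) and of endothelial markers (266.2 CPM) among the 6, and their part in the CDKN1C value was not tested. The ovary was at 12.6 ± 9.97 CPM and kidney medulla at 6.90 ± 5.06 CPM (SD, n = 6 each), while the pituitary lobes were lowest at 0.592 and 0.616 CPM.

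PEG3, a zinc finger protein, was highest in the hypothalamus, where its levels ran from 10.2 to 66.2 CPM with a median of 37.1 CPM. The lowest of these was the library of goat 2. The neurohypophysis was at 30.3 ± 4.03 CPM, the adenohypophysis at 29.6 ± 5.87 CPM and the bridge of the brainstem at 15.6 ± 7.12 CPM (SD, n = 6 each). MEST, a protein of the hydrolase fold family that is linked to fat cell growth, varied less. It ran from 1.04 CPM in the masseter muscle to 11.9 ± 3.05 CPM in the neurohypophysis, 11.01 ± 1.75 CPM in the cerebellar hemisphere and 10.9 ± 1.99 CPM in the adenohypophysis (SD, n = 6 each). PLAGL1, a zinc finger transcription factor, was the most even of the set. Its means ran from 2.17 CPM in the heart to 14.3 ± 2.33 CPM in the adenohypophysis, with 12.3 ± 3.98 CPM in the neurohypophysis and 11.8 ± 3.73 CPM in the mandibular lymph node (SD, n = 6 each).

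SNRPN encodes SmN, an Sm protein of the spliceosome that stands in for SNRPB in neurons. It was highest in the rostral colliculus at 10.8 ± 3.41 CPM and the bridge at 10.1 ± 3.63 CPM (SD, n = 6 each), and lowest in the masseter muscle at 1.26 CPM. SNRPB led in the adrenal cortex at 4.18 CPM and was at 0.826 CPM in the rostral colliculus. SNRPN shares its locus with SNURF, and 55.6% of its count values had a fractional part, so its reads may be split with overlapping features. DLK1, a membrane protein related to the Notch ligands that marks fat cell precursors, was barely read. It had no count in 161 of 198 libraries and in all 6 libraries of 19 tissues. Its highest library was at 5.47 CPM, in the mammary gland of goat 64, while the other 5 mammary libraries were at 0.226 CPM or less. The highest means were 2.01 CPM in the kidney medulla, 1.53 CPM in the hypothalamus and 1.17 CPM in the adrenal cortex. The fits within tissues left DLK1 out for its low counts.

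NDN, a MAGE family protein of the Prader-Willi region, was also low, with 69 of 198 libraries at 0. Its adrenal medulla levels were 6.79 CPM in goat 2, 0.952 CPM in goat 3, 4.44 CPM in goat 6, 5.46 CPM in goat 54, 0.551 CPM in goat 64 and 1.07 CPM in goat 73. Goats 2, 6 and 54 were thus high, and these same libraries held 889.5, 757.4 and 1194 CPM of the chromaffin markers TH, DBH, PNMT and CHGA, against 60.5 to 149.4 CPM in the others. PEG10 did not follow that split: in the medulla it was lowest, at 79.3 CPM, in goat 54 and highest, at 220.2 CPM, in goat 73. The part of chromaffin cell content in the NDN values was not tested.

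Several members lie beside features that took many reads. NDN-AS1, an antisense feature of the deposited annotation on the plus strand of chromosome 21 from 463523 to 465363 (no source used here gives the build), overlaps NDN. It averaged 75.9 CPM over tissues, and more reads were assigned to it than to NDN in all 198 libraries. Its tissue means followed those of NDN with a Pearson r of 0.918 and a Spearman rho of 0.873 over 33 tissues, given as a description since the tissues share goats. It was at 287.0 CPM in the hypothalamus and 232.0 CPM in the adrenal medulla, where goats 2, 6 and 54 again were the high libraries (314.8, 388.9 and 406.4 CPM against 83.8 to 109.9 CPM). Among all 2402 antisense features with a host gene in the table, 2047 (85.2%) had a higher mean than their host. The library kit keeps strand, but no source used here states how the counting used strand, and the reads of NDN and NDN-AS1 cannot be told apart with certainty.

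LINC60311 lies beside IGF2 on chromosome 29, on the minus strand from 50438662 to 50441337, and is classed as convergent. It averaged 166.4 CPM and followed IGF2 over tissues with an r of 0.867 and a rho of 0.775. Its highest tissue was the liver at 1065 ± 259.5 CPM (SD, n = 6), where IGF2 was at 11.02 CPM. COPG2 overlaps MEST and averaged 83.0 CPM, and COPG2-IT1, an intronic feature of COPG2, averaged 926.7 CPM with a maximum in the hypothalamus. BLCAP overlaps NNAT, ZC2HC1B overlaps PLAGL1 and SNURF overlaps SNRPN in the RefSeq annotation of assembly ARS1.2, so the values of these members are uncertain to that extent.

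**Figure D3:**
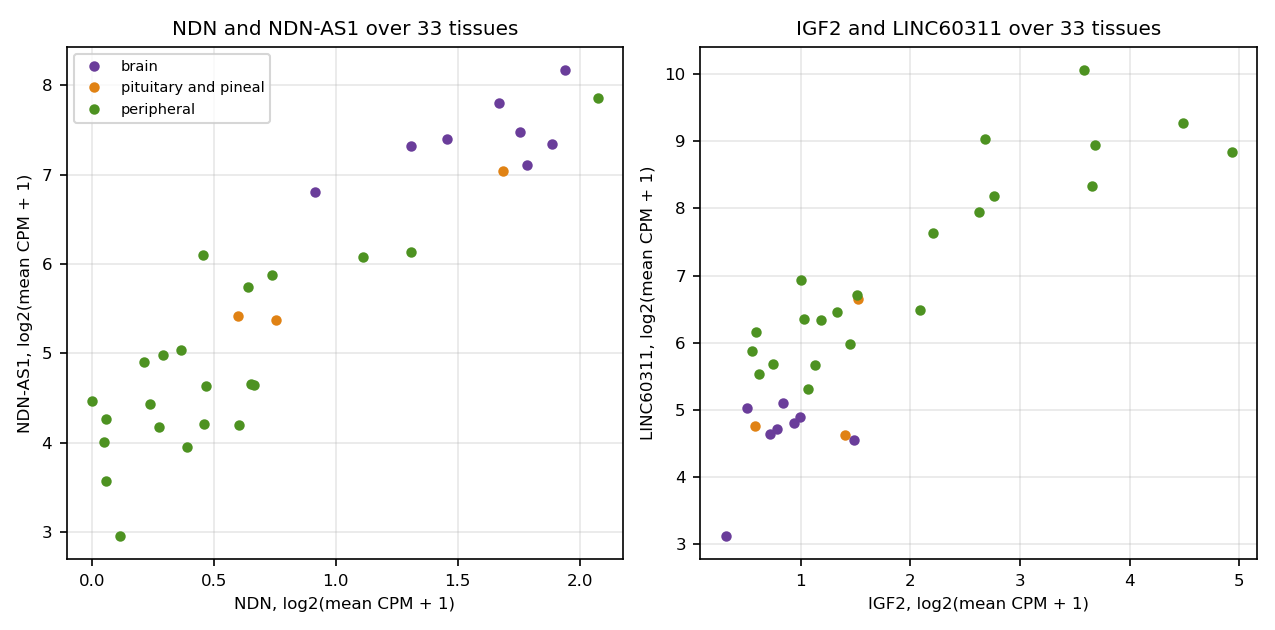
Tissue means of NDN against NDN-AS1 (left) and of IGF2 against LINC60311 (right), both as log2(mean CPM + 1), 1 point per tissue, coloured by group of tissues. Both pairs rise together over the 33 tissues (r = 0.918 and 0.867), with brain regions at the upper end for NDN and at the lower end for IGF2.

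Over the 33 tissue means, the 45 pairs of members had a median Spearman rho of 0.248, and 8 pairs (17.8%) were above 0.5. Over all pairs of the features outside the lncRNA annotation with at least 1 CPM in at least 3 tissues the median was 0.110, and 9.48% were above 0.5. The closest pairs were MEST with PLAGL1 (r = 0.820, rho = 0.815) and PEG3 with SNRPN (r = 0.807, rho = 0.782). MEST was in fact the feature most like PLAGL1 among all 17872 compared. The features most like NNAT were SIX6 (r = 0.919), a transcription factor of pituitary and eye, and POMC (r = 0.913), the precursor of corticotropin, with a rho of only 0.379 and 0.373; both also led in a pituitary lobe. SNRPN was most like GABBR1 (r = 0.908), a subunit of the GABA-B receptor, MEST most like TYK2 (r = 0.900) and PEG10 most like LOC108638533 (r = 0.906). CDKN1C was most like CRISPLD2 (r = 0.836) and COL6A3 (r = 0.828), which both led in subcutaneous fat. NDN was most like NXPH1 (r = 0.867), IGF2 most like LOC106503025 (r = 0.797) and DLK1 most like BSND (r = 0.699). All of these correlations are over 33 tissues that share the 6 goats and are given as descriptions.

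Brain regions were compared with peripheral tissues through 1 mean log2 CPM per goat and class, using limma and Benjamini-Hochberg adjustment over 31306 features. PEG3 was higher in brain by 2.58 on the log2 scale (SE 0.17, adjusted p = 1.38e-09), or 5.98-fold, PEG10 by 1.503 (SE 0.19, adjusted p = 2.33e-06), NDN by 1.49 (SE 0.18, adjusted p = 2.26e-06), SNRPN by 1.26 (SE 0.16, adjusted p = 2.57e-06) and MEST by 0.78 (SE 0.15, adjusted p = 1.75e-04). PLAGL1 was higher by 0.41 (SE 0.17, adjusted p = 0.0448), a call lost without goat 6, 54, 64 or 73, with TMM scaling and with no filter on low values (adjusted p between 0.0559 and 0.180). IGF2 was lower by a log2 difference of -1.51 (SE 0.24, adjusted p = 2.83e-05) and CDKN1C by -0.51 (SE 0.20, adjusted p = 0.0300), the latter lost without goat 2, 3, 6 or 73 and over features outside the lncRNA annotation alone (adjusted p between 0.0586 and 0.0954). NNAT (0.26, SE 0.20, adjusted p = 0.256, but 1.11 with the pituitary lobes counted as brain and 0.44 over features outside the lncRNA annotation, both called) and DLK1 (0.03, SE 0.09, adjusted p = 0.760) did not pass. The counts were 6 members higher and 2 lower of 10, where 40.0% and 26.8% of all features were called in those directions. TMM scaling moved the median over all features from 0.13 to 0.01, and the split from 12508 higher and 8379 lower to 10763 and 10196. A large share of the table thus differed as well, and the count of members is not read as particular to them. The high PEG10 of the adrenal gland is part of the peripheral mean. The median of the peripheral tissue means was 0.341 CPM for NDN and 0.751 CPM for PEG10, and that of the brain regions 0.758 CPM for IGF2. These values lie within the range of the floor, so the sizes of these differences are uncertain.

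Within the brain, the hypothalamus was set against the frontal neocortex with edgeR over 6 libraries each. PEG10 in the neocortex ran from 0 to 7.18 CPM with a median of 2.70 CPM, against 3.47 to 60.0 CPM with a median of 37.9 CPM in the hypothalamus. The log2 difference was 3.39 (SE 0.63, adjusted p = 0.00391), and the only hypothalamus library within the neocortex range was that of goat 2. PEG3 was higher by 2.10 (SE 0.44, adjusted p = 0.00886), NNAT by 1.02 (SE 0.20, adjusted p = 0.00540) and MEST by 1.28 (SE 0.34, adjusted p = 0.0428). NNAT ran from 8.16 to 18.6 CPM in the neocortex and from 21.4 to 34.3 CPM in the hypothalamus, so its groups did not overlap. These were 4 of the 7 members tested, where 1.77% of all features tested were higher and 3.26% lower, and none of the 7 was lower. PLAGL1, NDN and SNRPN did not pass, at 0.38, 0.41 and -0.39. Without goat 2, whose 2 libraries held few neuronal markers, 4 members were again called, and without goat 64 only PEG10 and NNAT. MEST was lost in 7 of the 11 alternatives. COPG2, which overlaps MEST, was higher in the same edgeR fit by 1.19 (SE 0.21, adjusted p = 0.00287), with a mean of 608.3 CPM in the hypothalamus. The part of COPG2 reads in the MEST difference was not tested. RBFOX3, SNAP25 and SYT1 of neurons, CDH5 of endothelium and ADIPOQ of adipocytes were called lower in the hypothalamus. No cell type marker was called higher there, while the 4 oligodendrocyte markers had a median of 1.18. The part of cell content in the member differences was not tested.

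The parts of other organs were compared in the same way. Between adrenal medulla and cortex none of 8 members passed and 0% of 17235 features did (1546 at an unadjusted p under 0.05, 62 higher and 4 lower by DESeq2, and 8 higher with the goat as a block). The log2 difference of PEG10 was 0.01 with a 95% interval from -0.43 to 0.45, and that of NDN was 1.02 with an interval from -0.38 to 2.43. The chromaffin markers ran from 60.5 to 1194 CPM in the medulla libraries and from 8.60 to 294.1 CPM in the cortex libraries, and these ranges overlap. Between the pituitary lobes none of 6 members and 0% of 17891 features passed with edgeR (330 at an unadjusted p under 0.05, 0 by DESeq2), and the interval for NNAT was -0.58 to 0.49. The neurohypophysis libraries held endocrine markers, as given above. In this fit 5 of those markers were tested and 0 called (median -0.17), and 0 of the 4 pituicyte and vasopressin neuron markers had enough counts for the test. The comparison therefore cannot show whether the lobes differ. In skeletal muscle, NNAT was higher in the diaphragm than in the masseter muscle by 1.03 (SE 0.22, adjusted p = 0.0168). Its diaphragm levels ran from 10.3 to 26.8 CPM with a median of 20.6 CPM and its masseter levels from 4.35 to 12.2 CPM with a median of 7.01 CPM, so the 2 groups overlapped. NNAT was the only one of 4 members tested to pass, where 1.07% of features were higher and 1.17% lower (156 and 171 features, and 279 and 324 with the goat as a block). The call was lost without goat 2, 6, 64 or 73 (adjusted p between 0.0516 and 0.0837). In the same fit SERCA1 (ATP2A1) was higher in the diaphragm by 8.31 and sarcolipin (SLN) by 2.98, and SERCA2 (ATP2A2) was lower, at -0.92. The adipocyte markers ADIPOQ and PLIN1 summed to 10.5 to 48.8 CPM in the diaphragm and 3.05 to 8.63 CPM in the masseter muscle, with no overlap, and ADIPOQ was the only cell type marker called in this fit. Its part in the NNAT difference was not tested.

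Lactating and dry goats were compared within each of the 33 tissues with edgeR. Of 193 pairs of a member and a tissue that passed the count filter, 5 were higher in lactating goats and 2 were higher in dry goats at an adjusted p under 0.05. Over all features, 0.925% of the tests were called higher in lactating goats and 0.976% higher in dry goats. The count without a filter on low counts was 13 pairs and that by DESeq2 was 12.

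Of the pairs called, 3 were in the ovary. IGF2 was at 39.6, 43.4 and 35.2 CPM in lactating goats 2, 3 and 6, and at 2.88, 1.56 and 5.84 CPM in dry goats 54, 64 and 73. Every lactating library lay far above every dry one, and the log2 difference was 3.15 (SE 0.45, adjusted p = 0.00518). PEG3 was at 20.2, 22.4 and 14.6 CPM in the lactating ovaries and 2.16, 4.15 and 1.88 CPM in the dry ones, with a log2 difference of 2.41 (SE 0.39, adjusted p = 0.00797). CDKN1C was at 17.1, 27.4 and 18.4 CPM against 2.16, 3.29 and 7.30 CPM, with a log2 difference of 1.89 (SE 0.46, adjusted p = 0.0339). None of these 3 genes overlapped between states. In the ovary, 5.71% of features were called higher in lactating goats and 5.97% higher in dry goats, so this tissue differed between states in many genes. PEG3 lost its call without goat 2 or 3 (adjusted p = 0.0507 and 0.0534), and CDKN1C without goat 2, 3, 6, 54 or 64 (0.0894 to 0.143). LINC60311, beside IGF2, was higher in the lactating ovaries too, by 2.61 (SE 0.28, adjusted p = 0.00203). Among the IGF2 partners, 3 of 13 tested were higher and none lower: the binding proteins IGFBP2 (2.03) and IGFBP5 (1.64) and the insulin receptor INSR (1.14). The summed epithelial markers EPCAM, KRT8, KRT18 and CDH1 were at 3.17 to 8.08 CPM in lactating and 37.02 to 141.9 CPM in dry ovaries, and the granulosa and luteal markers at 14.0 to 34.1 and 6.46 to 9.88 CPM. Of single markers, VWF of endothelium, CD68 of leukocytes and FOXL2 of granulosa and luteal cells were called higher, and EPCAM, KRT8 and CDH1 lower. The part of these cell types in the member differences was not tested.

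In the left ventricle, NNAT was at 10.96, 11.06 and 12.09 CPM in lactating goats and at 2.83, 1.85 and 1.45 CPM in dry goats. The log2 difference was 2.23 (SE 0.36, adjusted p = 0.00408), where 2.15% of features were higher and 0.724% lower. NNAT was the only one of 4 members tested there to pass. The SERCA inhibitor phospholamban (PLN) was lower in the lactating hearts, at -1.03 (SE 0.21, adjusted p = 0.0157). The summed cardiac markers overlapped between states, at 589.8 to 742.0 CPM and 684.7 to 831.3 CPM, while the fibroblast markers were lower in lactating hearts, at 31.5 to 43.2 against 64.9 to 82.6 CPM. The endothelial sum was higher, at 33.0 to 52.0 against 14.1 to 18.6 CPM, with VWF called higher, and JCHAIN of the leukocyte list was called lower. The part of these cell types in the NNAT difference was not tested.

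In the neurohypophysis, NNAT was at 325.6, 518.6 and 526.3 CPM in lactating goats and at 260.8, 236.5 and 253.0 CPM in dry goats, again with no overlap. The log2 difference was 0.996 (SE 0.165, adjusted p = 0.00477), where 1.06% of features were higher and 1.67% lower. The pituitary endocrine markers overlapped between states in this tissue, from 586.7 to 1970 CPM and from 774.0 to 1021 CPM. Of the 5 of them tested, 0 were called, but their median log2 difference was 0.93, in the same direction as NNAT. The part of cell content in the NNAT difference was not tested. In the adenohypophysis NNAT was at 371.0, 359.2 and 479.2 CPM against 317.4, 152.0 and 298.3 CPM and did not pass (0.84, SE 0.24, adjusted p = 0.0815).

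In the kidney medulla, PEG3 was at 5.10, 2.66 and 2.10 CPM in lactating goats and at 9.36, 12.6 and 5.35 CPM in dry goats, and PEG10 was at 0.928, 2.66 and 2.94 CPM against 8.39, 6.38 and 6.07 CPM. The log2 differences were -1.84 (SE 0.49, adjusted p = 0.0235) and -1.98 (SE 0.53, adjusted p = 0.0250), and the states did not overlap for either gene. In this tissue 6.02% of features were called higher in lactating goats and 9.11% higher in dry goats. CDKN1C went the other way without passing, at 1.40 (SE 0.44, adjusted p = 0.0502). PEG3 lost its call without goat 3, 6, 54 or 64, and PEG10 without goat 2, 54 or 73 (adjusted p between 0.0553 and 0.0917). The summed epithelial markers were at 90.7 to 110.2 CPM in the lactating and 20.5 to 27.2 CPM in the dry libraries, and SLC1A3, ALDH1L1, GFAP and AQP4 at 18.7 to 23.4 and 67.4 to 93.8 CPM in sum. TTR, a marker of the hepatocyte list, was lower in lactating libraries by a log2 difference of -8.58, the largest median shift among the marker lists there, while VWF of endothelium, PDGFRA of fibroblasts and MOG were called higher. The endothelial sum was at 41.5 to 68.1 against 10.7 to 27.6 CPM and the fibroblast sum at 51.0 to 111.8 against 18.9 to 40.7 CPM. The part of cell content in these differences was not tested.

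**Figure D4:**
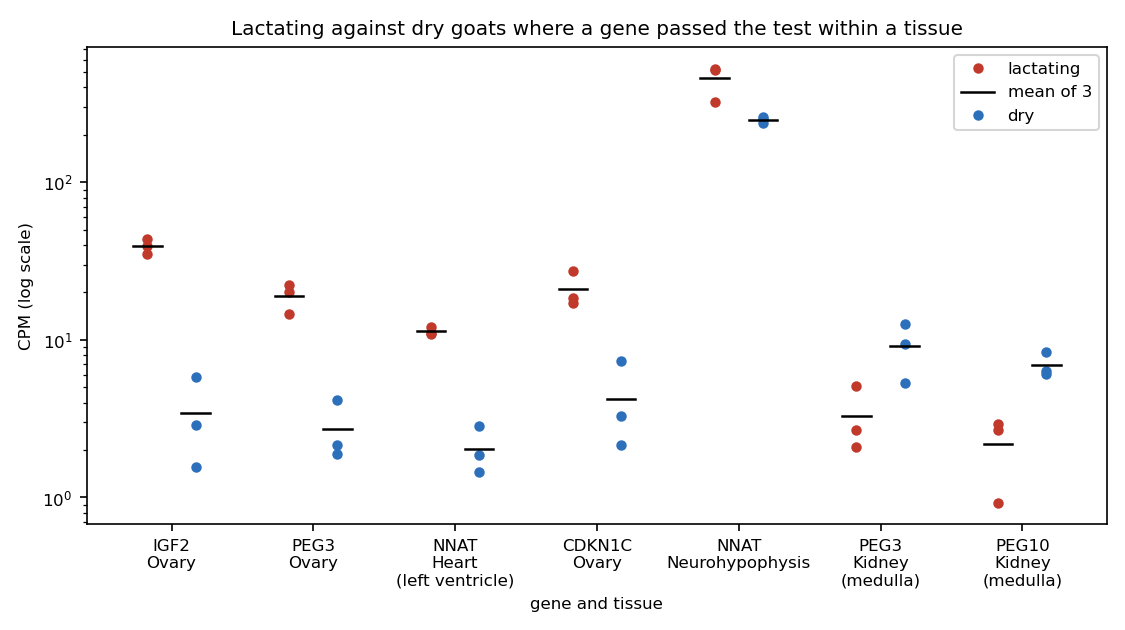
CPM on a log axis for the 7 pairs of a gene and a tissue that passed the test between states, with 3 lactating goats in red, 3 dry goats in blue and a bar at each mean. In none of the 7 do the points of the states overlap, and PEG3 and PEG10 in kidney medulla are the pairs in which dry goats are higher.

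Over many tissues, NNAT and PLAGL1 leaned towards lactating goats. All 3 lactating libraries lay above all 3 dry libraries for NNAT in 15 of 33 tissues, and the reverse held in 3, the pineal gland, hypothalamus and cerebellar hemisphere. For PLAGL1 the numbers were 11 and 0. Over all features and tissues with a mean of at least 1 CPM, 12% were separated with lactating goats higher and 7.22% with dry goats higher. The tissues share the same goats and are not independent. PEG10, by contrast, was separated in that way in 1 tissue with lactating goats higher and in 2 with dry goats higher, besides the lung, where its mean was under 1 CPM.

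The same lean was tested on 1 value per goat. For the mean over 22 peripheral tissues, NNAT was at 4.33, 4.58 and 4.07 log2 CPM in lactating goats 2, 3 and 6 and at 3.53, 3.22 and 3.35 in dry goats 54, 64 and 73. The difference was 0.96 (SE 0.13, limma adjusted p = 0.00131), or 1.95-fold. IGF2 was at 1.59, 1.81 and 2.02 against 1.17, 0.87 and 1.02, a difference of 0.79 (SE 0.16, adjusted p = 0.00859). In the fits within tissues, however, IGF2 was positive in only 4 of the 10 tissues tested, with a median log2 difference of -0.04. The median of its peripheral tissue means, 1.79 CPM, lies within the range of the floor. The IGF2 difference is therefore not read as a rise across peripheral tissues. PLAGL1 was at 2.85, 2.77 and 2.72 against 2.24, 2.09 and 1.92, a difference of 0.70 (SE 0.12, adjusted p = 0.00416). In none of the 3 did the goats of the states overlap. The other 7 members did not pass, and all of them but DLK1 were positive. The goats of MEST and SNRPN did not overlap either. Those of PEG3 were apart by a narrow margin, at 0.9221 log2 CPM in lactating goat 6 and 0.9217 in dry goat 54. The share of all features separated in such goat means was not computed, so these separations are not read as particular to the members. The median over all features was 0.12, and 20.0% of features were higher in lactating goats and 3.31% lower. The 3 of 10 members called are not far from that share. TMM scaling moved the median by -0.13, to -0.01, and the split from 6260 higher and 1037 lower to 2775 and 2723, and the same 3 members were called under it. Relative to the median of all features, NNAT was higher by 0.84. Cell type markers moved in the same fit: PECAM1 and VWF of endothelium (median of the list 0.76), ADIPOQ and PLIN1 of adipocytes (0.59), ACTA1 and MYH11 of muscle were called higher, 1 leukocyte marker of CD68 and JCHAIN was called in each direction, and 1 or 2 markers were called in each of 7 other lists. Their part in the member differences was not tested.

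For the mean over 8 brain regions no member passed (limma, 10 tested), where 0% of features were higher in lactating goats and 0.00958% lower (3179 of 31306 at an unadjusted p under 0.05). PLAGL1 (0.34, adjusted p = 0.520) and DLK1 (-0.31, adjusted p = 0.429) did not overlap between states there. The median of the DLK1 means over brain regions was 0.0392 CPM, under the floor, so no state difference is read from it. The share of all features separated in the brain mean was not computed. NNAT was at 4.194, 3.996 and 3.935 log2 CPM in lactating goats and at 4.368, 3.989 and 4.174 in dry goats, which overlap. The difference between the brain effect and the peripheral effect was tested directly. For NNAT it was -1.10 (SE 0.18, limma adjusted p = 0.0152), where 0.169% of features were called with a positive difference and 6.29% with a negative one. The call was lost without goat 3, 54 or 64 and with features outside the lncRNA annotation alone (adjusted p between 0.0506 and 0.0561). SNRPN was next at -0.80 (SE 0.20, adjusted p = 0.0502). IGF2 and PLAGL1 did not pass that test, at -0.68 (adjusted p = 0.273) and -0.36 (adjusted p = 0.213), so their effects are not shown to differ between brain and periphery. No cell type marker was called in the brain mean, where the neuronal list had a median of -0.58. In the direct test, ENO2 of that list (median -0.71), VWF, CD68, ADIPOQ, MYH11 and AMH were called lower. SNRPN in brain was lowest in goat 2 (2.38 log2 CPM), whose hypothalamus and neocortex held few neuronal markers. The part of cell content in these differences was not tested.

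**Figure D5:**
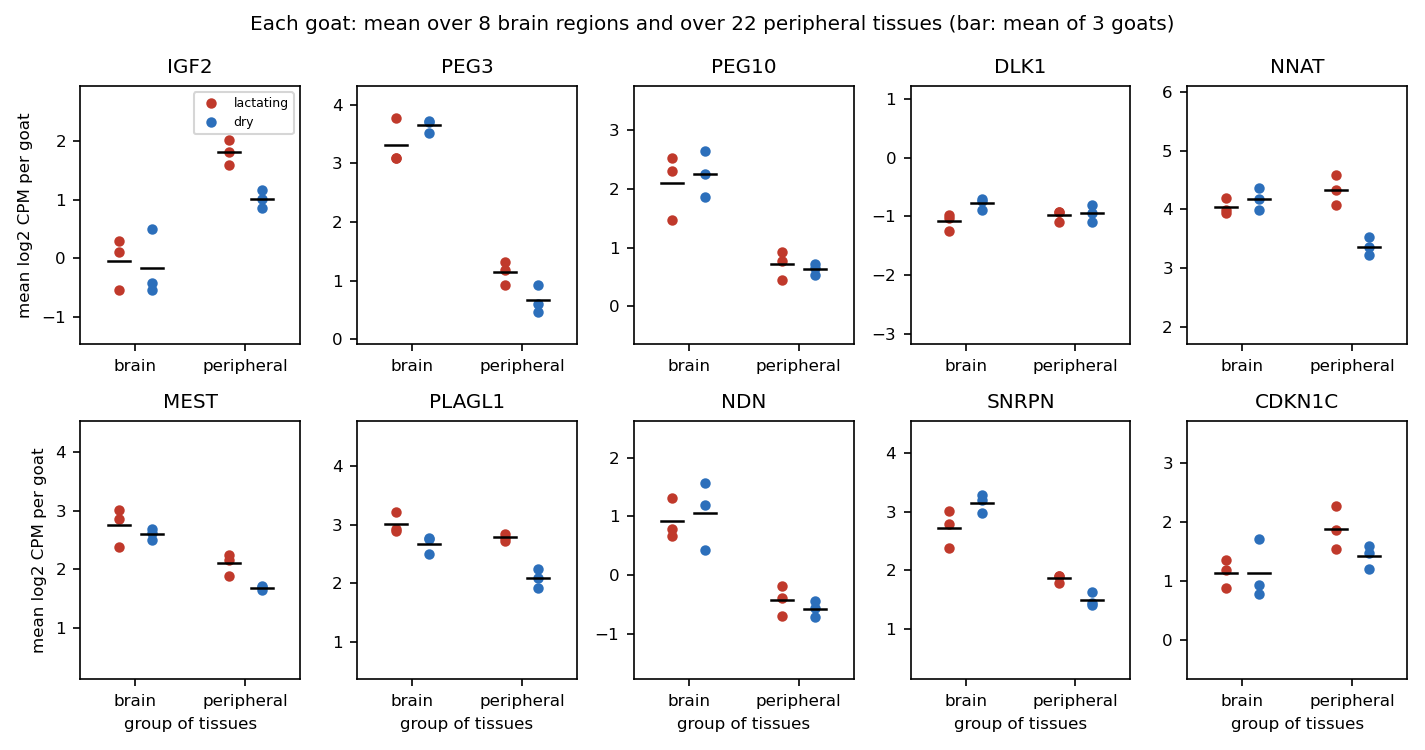
Mean log2 CPM of each goat over 8 brain regions and over 22 peripheral tissues, 1 panel per gene, lactating goats in red, dry goats in blue and a bar at the mean of 3. NNAT, IGF2 and PLAGL1, which passed the test, are separated between states in peripheral tissues. MEST, SNRPN and, by a narrow margin, PEG3 are separated there too but did not pass. In brain PLAGL1 and the barely read DLK1 are separated and NNAT overlaps.

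Related genes were followed through the same fits. The shares of all features called are again 40.0% higher and 26.8% lower in brain. In the peripheral mean they are 20.0% higher and 3.31% lower in lactating goats. TMM scaling evens the split over all features in both comparisons, and the list counts are not read as particular to the lists. Of 11 other paternally expressed imprinted genes tested, 7 were higher in brain than in peripheral tissues and 0 lower, among them RTL1 (2.85) and MAGEL2 (2.58), with a median of 0.45 against 0.13 over all features. Of 18 maternally expressed ones, 7 were higher and 6 lower, with a median of -0.09. RTL1, a retrotransposon-derived gene of the DLK1 locus, was read far above the floor where DLK1 was not: its means were 160.8 ± 114.6 CPM (SD, n = 6) in the adrenal medulla and 155.9 ± 36.4 CPM (SD, n = 6) in the neurohypophysis. In the adrenal medulla RTL1 was at 296.9, 257.4 and 237.4 CPM in goats 2, 6 and 54 and at 55.8 to 61.2 CPM in the others, so the same 3 goats were high as for NDN. RTL1 was higher in lactating goats in the peripheral mean (0.64, SE 0.11, limma adjusted p = 0.00416). Its signed effect in brain minus that in peripheral tissues was -1.14 (SE 0.20, limma adjusted p = 0.0171). Among 17 partners of IGF2 signalling, 7 were higher in lactating goats in the peripheral mean and 0 lower, with a median of 0.33. They were the receptors IGF2R (0.96), which clears IGF2, IGF1R (0.61) and INSR (0.52), the adaptor IRS2 (0.68), the mRNA binding proteins IGF2BP2 (0.54) and IGF2BP3 (0.68), and IGFBP1 (0.41). Of 12 genes of the Notch pathway, 7 were higher in that mean and 0 lower, with NOTCH1 at 0.96 and DLK2 at 0.49 and a median of 0.46 against 0.12 over all features. Of 12 spliceosomal proteins related to SNRPN, 1 was higher in brain and 9 were lower. Of 13 cyclin-dependent kinase inhibitors and partners, 4 were higher in brain and 7 lower.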

How the data were processed

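Total RNA of 33 tissues of 6 goats (198 libraries) was extracted with a RiboPure kit and sequenced on a NovaSeq from strand-specific libraries, per the labels' protocols. STAR, StringTie and edgeR are named in the submitters' processing notes, without versions or roles. The genome build, the counting tool and its strand setting are not given in the sources used here. The authors deposited a table of estimated counts per gene, with fractional values, which were rounded here to whole numbers for the tests. The authors also deposited natural log offsets per gene and library and tau scores as a fraction from 0 to 1, which were used for checks only. Features of the lncRNA annotation took 85.0% of counts. Groups follow the labels, and nothing was left unassigned.

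Levels are CPM of the library total. State within a tissue and tissue pairs were tested with edgeR 4.0.16 in R 4.3.3 (TMM, filterByExpr with a minimum count of 10, quasi-likelihood test, Benjamini-Hochberg adjustment over all features tested at 0.05). The standard error is the log2 fold change divided by the root of F. Means over tissues were tested with limma 3.58.1 on 1 value per goat (log2 CPM, prior count 2, features with at least 1 CPM in a tissue). Tau and likeness used a pseudocount of 1. The scripts were tested on simulated data. Alternatives were DESeq2 1.42.0, its size factors, no filter, another prior count, features outside the lncRNA annotation, TMM over all libraries, the goat as a block, leaving out each goat, and leaving out libraries closest to another tissue. The libraries left out in the last of these were the abomasum and duodenum of goat 2 and the mammary gland of goat 54. That alternative was run only within tissues other than the pineal gland, so these libraries remain in the peripheral means. All members are named, with up to 3 of the most alike features of each (1 such result is not reported here), features of the lncRNA annotation that carry a member's name, and list genes that were called or had the highest tissue means. LINC60311, the other overlapping or neighbouring genes, and some single values were chosen for description after their values were seen. The members and lists were chosen with earlier results of these data known. Tissues of the same number come from the same goat, so the numbers pair the samples. Deviations of same-numbered libraries correlated over 24017 features at 0.138 to 0.349 in the adrenal pair, 0.152 to 0.256 in the pituitary pair, 0.113 to 0.303 in the muscle pair, and -0.00029 to 0.724 between hypothalamus and neocortex, where 4 of 6 goats were over 0.1 and the highest was goat 2, whose libraries held few neuronal markers. H19, MEG3 and GNAS were not analysed here.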

Additional observations from a re-analysis of the deposited data

Results flagged for a closer look

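In the main fit, the difference between lactating and dry goats in NNAT was called as unlike in brain and in peripheral tissues. The effect in the mean of 8 brain regions minus that in the mean of 22 peripheral tissues was -1.10 on the log2 scale (SE 0.18, limma adjusted p = 0.0152), and this difference between the groups of tissues was itself tested. The peripheral effect was 0.96, with all 3 lactating goats above all 3 dry goats, and the brain effect was -0.14, with overlap. The median over all features in this contrast was -0.20, and 6.29% of features were called in the same direction. Relative to that median NNAT was at -0.90. The call was lost without some single goats and over features outside the lncRNA annotation alone, as given above.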

How the results depend on the processing

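The number of member and tissue pairs called between states was 7, and it was 13 with no filter on low counts, 12 with the DESeq2 test and 4 to 7 leaving out each goat. Over all features these settings called 12585 higher and 13160 lower with no filter and 9630 and 10258 with DESeq2, against 5348 and 5643. Leaving out each goat gave 2 to 4 members between hypothalamus and frontal neocortex, 0 to 1 between diaphragm and masseter muscle, 3 to 5 for the peripheral mean and 0 to 3 for brain minus peripheral, which was 0 over features outside the lncRNA annotation. Between hypothalamus and neocortex that restriction called 66 features higher and 160 lower, DESeq2 496 and 990, and leaving out a goat 157 to 356 and 361 to 987, against 313 and 576. For the muscle pair DESeq2 called 274 and 284 features and leaving out a goat 102 to 136 and 102 to 142, against 156 and 171. The goat as a replicate block gave 8 members between brain and peripheral tissues, 4 between hypothalamus and neocortex, 1 in the muscle pair and 0 in the adrenal and pituitary pairs, and this pairing changed no call count of members. The highest tissue moved to rank 2 for PEG10 and MEST over features outside the lncRNA annotation, and by the median to rank 2 for PEG10 and NNAT and to rank 3 for DLK1. No result reversed in the alternatives run. Causes of these shifts were not tested. Low counts limit DLK1 and NDN, which were tested in 0 and 7 tissues.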
